A study of Mus musculus with 4 samples.

Results

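The ID proteins and the E proteins they bind are described here through 6 genes: Id1, Id2 and Id3, and Tcf3, Tcf4 and Tcf12. They were picked by symbol from the 24537 genes of the deposited table, with earlier results of the same comparison known, so their levels are given as a description and no test of them is reported. The cells were CD8+ T cells recovered from B16-GP33 tumours of mice at day 21 after the tumour was implanted, with 2 libraries labelled ACSS2NLS and 2 labelled EV, the control. B16 cells are a mouse melanoma line, and GP33 is a viral epitope seen by CD8+ T cells. The enzyme ACSS2 turns acetate into acetyl-CoA, and NLS commonly stands for nuclear localisation signal. Both groups carried the same tumour, and neither had added ACSS2 without the signal, so the amount of the enzyme and its place in the cell cannot be told apart. The labels give no mouse strain, age, promoter or vector, and do not say that the libraries came from separate mice, so the spread between them may be technical. Acss2 stood at 80.7 and 86.3 FPKM in the ACSS2NLS libraries, against 3.66 and 3.92 FPKM in the EV libraries, which matched the labels.

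E proteins are basic helix-loop-helix transcription factors that bind DNA as pairs at short sites called E-boxes. ID proteins carry the helix-loop-helix but no basic, DNA-contacting region, so a pair of an ID protein and an E protein cannot bind an E-box. The balance between the 2 kinds therefore sets how much E-protein activity a lymphocyte has. In CD8+ T cells Id2 is known from effector cells and Id3 from memory precursors and progenitor exhausted cells. Tcf3 encodes the E proteins E12 and E47 from alternative exons, Tcf12 encodes HEB and Tcf4 encodes E2-2, which is best known from plasmacytoid dendritic cells. Despite their symbols, none of the 3 encodes TCF1, the product of Tcf7. The deposited table keeps a single value per gene, so E12 and E47 could not be separated.

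The sequences just upstream of Id2 and Id3 are shown because on the log2(FPKM + 1) scale these were the members with the widest gap between the groups, in opposite directions. They are the 250 bases before the RefSeq transcription start in GRCm38.p6, on the gene's own strand, chr12:25096093-25096342 (minus strand) for Id2 and chr4:136143572-136143821 (plus strand) for Id3. Capitals mark E-boxes (CANNTG), the SMAD-type letters CAGAC on either strand, and the SMAD-type letters GGCGCC.
Id2: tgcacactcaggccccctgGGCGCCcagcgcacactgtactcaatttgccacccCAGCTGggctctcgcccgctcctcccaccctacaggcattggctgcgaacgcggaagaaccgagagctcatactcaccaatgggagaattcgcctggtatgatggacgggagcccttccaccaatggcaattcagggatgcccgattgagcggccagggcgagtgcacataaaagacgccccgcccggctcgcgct
Id3: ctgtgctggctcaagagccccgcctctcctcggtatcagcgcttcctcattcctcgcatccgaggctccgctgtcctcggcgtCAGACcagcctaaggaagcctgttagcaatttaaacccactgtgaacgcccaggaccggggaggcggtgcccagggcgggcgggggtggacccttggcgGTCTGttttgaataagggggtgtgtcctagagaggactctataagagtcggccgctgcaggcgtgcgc
Upstream of Id2, 1 E-box with the letters CAGCTG began 196 bases before the start, and GGCGCC began 231 bases before it. Upstream of Id3, no E-box was found in this window, and CAGAC was found at 167 bases before the start and, on the other strand, at 68 bases. The same window of all 32851 promoters in the table held an E-box in 66.2%, CAGCTG in 13%, GGCGCC in 9.59% and CAGAC in 42.2%. The EGR-type letters GCGGGGGCG and GCGTGGGCG, searched on both strands, were in neither promoter and in 2.57% and 0.54% of all promoters. These are matches of letters in a short window and say nothing of which factor binds there.

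The levels of the 6 genes spread widely. FPKM is the number of tags per kilobase of exon and per 1000000 tags of the library, so levels can be set side by side between genes. Id2 was the most abundant member, above 99.6% of all genes in the table in both ACSS2NLS libraries and above 99.8% in both EV libraries. Tcf3 came next, at 27.9 to 32.6 FPKM over the 4 libraries. Id3 and Tcf12 changed places between the groups. Id3 was 2.19 and 1.10 times the level of Tcf12 in ACSS2NLS replicates 1 and 2, against 0.445 and 0.349 times in EV replicates 1 and 2. Id1 and Tcf4 were the lowest, both under 1 FPKM in every library, and their order differed between the libraries of ACSS2NLS, so these neighbours could not be ranked.

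**Figure D1:**
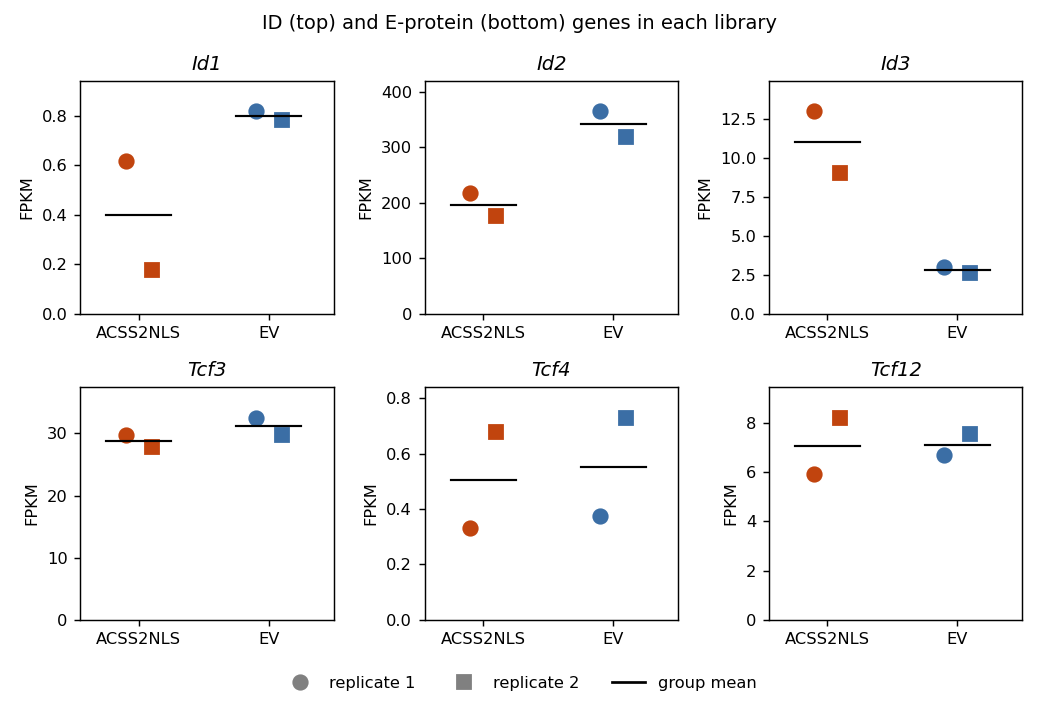
FPKM of each of the 6 genes in each library (points; circles replicate 1, squares replicate 2) with the group mean (line), on axes that start at 0. The ACSS2NLS libraries lie above both EV libraries for Id3 and below both for Id2 and Id1, while Tcf4 and Tcf12 overlap and Tcf3 is nearly level.

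Among the inhibitors, Id3 was higher and Id2 lower in ACSS2NLS cells. Id3 (NM_008321; mm10 chromosome 4, 136143822 to 136145392, plus strand) stood at 13.0 and 9.08 FPKM in ACSS2NLS, against 2.98 and 2.63 FPKM in EV. The ACSS2NLS values rested on 602 and 416 tags, against 130 and 123 tags in EV. Both ACSS2NLS libraries were well above both EV libraries: the mean was 3.93-fold higher, and the 4 ratios of one ACSS2NLS library to one EV library ran from 3.04 to 4.94. The larger of the 2 ACSS2NLS libraries was 1.43 times the smaller, and the larger EV library 1.13 times the smaller. The log2 change, computed on log2(FPKM + 1), was 1.64 ± 0.20 (SE, n = 2 per group), the 10th highest of the 9810 genes that averaged 1 FPKM or more.

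Id2 (NM_010496; mm10 chromosome 12, 25093799 to 25096092, minus strand) stood at 217 and 175 FPKM in ACSS2NLS, against 364 and 318 FPKM in EV. Both ACSS2NLS libraries were below both EV libraries, and the mean of ACSS2NLS was 0.574 times that of EV. Single ratios of an ACSS2NLS library to an EV library ran from 0.482 to 0.681, while replicates of a group differed by 1.23 times in ACSS2NLS and by 1.14 times in EV. The log2 change was -0.80 ± 0.17 (SE, n = 2 per group), the 69th lowest of the 9810 genes. In absolute terms the gap of Id2 was far wider than that of Id3: the ACSS2NLS mean minus the EV mean was -145 FPKM for Id2 and 8.24 FPKM for Id3.

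Id1, the third inhibitor and a gene known as a target of bone morphogenetic protein signals, was close to the limit of measurement. It stood at 0.617 and 0.178 FPKM in ACSS2NLS, against 0.819 and 0.785 FPKM in EV. These values rested on 28 and 8 tags in ACSS2NLS and on 35 and 36 tags in EV. The exact Poisson 95% interval, which covers counting error only, was 0.0768 to 0.351 FPKM in ACSS2NLS replicate 2, below the interval of each other library. For ACSS2NLS replicate 1 it was 0.410 to 0.892 FPKM, which overlapped those of both EV libraries. The groups did not overlap, but ACSS2NLS replicate 2 lay apart from the other 3 libraries. Id1 was below the filter on low values and entered no test.

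The E-protein genes showed little difference between the groups. Tcf3 (NM_001164150; mm10 chromosome 10, 80409165 to 80433653, minus strand) stood at 29.8 and 27.9 FPKM in ACSS2NLS, against 32.6 and 29.8 FPKM in EV. ACSS2NLS replicate 1, at 29.811 FPKM, and EV replicate 2, at 29.816 FPKM, were all but equal, and the log2 change was -0.11 ± 0.11 (SE, n = 2 per group). Each Tcf3 value rested on 4429 to 4924 tags.

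Tcf12 (NM_001253865; mm10 chromosome 9, 71844252 to 72111819, minus strand) stood at 5.94 and 8.23 FPKM in ACSS2NLS, against 6.70 and 7.55 FPKM in EV. The ACSS2NLS libraries enclosed both EV libraries, with a log2 change of -0.02 ± 0.18 (SE, n = 2 per group). Tcf4 stood at 0.331 and 0.678 FPKM in ACSS2NLS, against 0.373 and 0.730 FPKM in EV, on 115 to 256 tags. Its groups overlapped, and replicate 2 was 2.05 times replicate 1 in ACSS2NLS and 1.96 times in EV. For Tcf4 and Tcf12 alike, both libraries numbered 2 were above both libraries numbered 1.

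Of the 6 members, 4 averaged 1 FPKM or more and entered the fit across all genes with limma-trend and Benjamini-Hochberg adjustment. That fit called 2 of the 9810 genes, 0.0204%, which were Acss2 and its antisense gene Acss2os, both higher in ACSS2NLS. The sources do not say whether strand was kept, so tags of Acss2 may have been counted for Acss2os, which was not tested. Of the 4 members tested, the groups did not overlap for Id2, Id3 and Tcf3, against 37.4% of all genes tested (19.3% higher and 18.1% lower in ACSS2NLS). They did not overlap for Id1 either, which was below the filter and so is outside that share. Since the members were chosen with this comparison known, nothing is read from these counts.

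By group means, the Id3 share of the ID transcripts in ACSS2NLS was 6.49 times that in EV. The summed ID level was 0.602 times and the Id2 share 0.955 times that of EV. Id3 made up 5.65% and 4.91% of the summed ID level in ACSS2NLS, against 0.811% and 0.818% in EV. Id2 made up 94.08% and 94.99% in ACSS2NLS, against 99.0% and 98.9% in EV, so it remained the main ID transcript in every library. Id2 was 16.7 and 19.3 times as abundant as Id3 in ACSS2NLS, against 122 and 121 times in EV. The spread of this ratio was small beside the gap between the groups, with an SD of 1.89 in ACSS2NLS and of 0.785 in EV (n = 2 each).

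Set against the E proteins, the ID transcripts were less abundant in ACSS2NLS cells. The summed ID level was 230 and 185 FPKM in ACSS2NLS, against 368 and 322 FPKM in EV. The summed E-protein level was 36.1 and 36.8 FPKM in ACSS2NLS, against 39.6 and 38.1 FPKM in EV, a ratio of the means of 0.937. ID transcripts were thus 6.38 and 5.03 times the E-protein transcripts in ACSS2NLS, against 9.29 and 8.45 times in EV. The groups did not overlap, and the ACSS2NLS mean of this ratio was 0.643 times the EV mean. Most of the sum on the E-protein side was Tcf3, at 82.6% and 75.8% in ACSS2NLS and 82.2% and 78.3% in EV. Id3 relative to Tcf3 was 0.436 and 0.326 in ACSS2NLS, against 0.0916 and 0.0883 in EV. These ratios were not tested, because the smallest two-sided p of an exact permutation test on 2 against 2 libraries is 0.333, and protein levels were not measured.

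**Figure D2:**
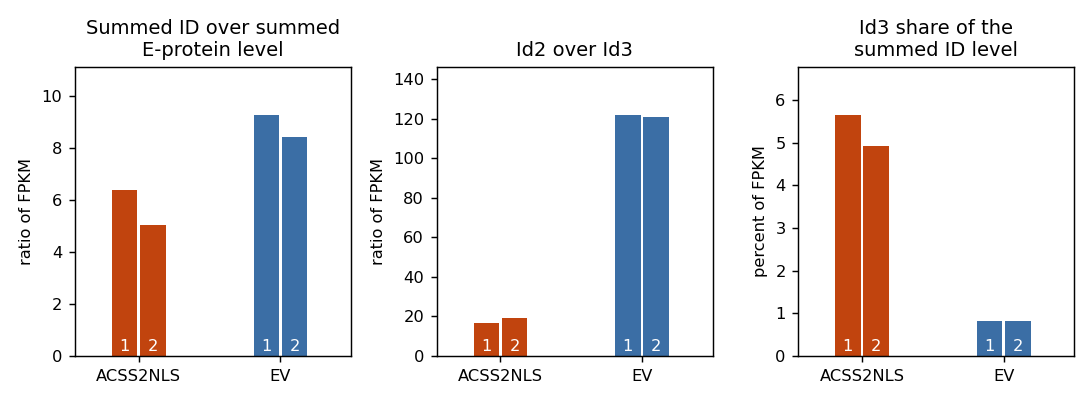
Ratios of FPKM levels in each library (bars, numbered by replicate): summed ID over summed E-protein level, Id2 over Id3, and the percent share of Id3 in the summed ID level. The 2 groups do not overlap in any panel, and Id2 over Id3 is 16.7 and 19.3 in ACSS2NLS against 122 and 121 in EV.

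The genes around the ID and E proteins were looked at through lists drawn up by their known roles. Of 12 other helix-loop-helix factors, 1 was abundant enough to be tested. This was Bhlhe40, a repressor that binds E-boxes of another kind and is induced by T cell activation, at 161 and 118 FPKM in ACSS2NLS, against 447 and 228 FPKM in EV. Its log2 change was -1.21 ± 0.35 (SE, n = 2 per group; limma-trend, adjusted p = 0.81), and both ACSS2NLS libraries were below both EV libraries. Id4, the remaining ID gene, was below 0.1 FPKM in every library, as were Tal1, Tal2, Ascl2, Twist2 and Hey1.

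Of 12 genes for cofactors and for the turnover of ID and E proteins, 10 were tested, of which 5 had a higher and 5 a lower mean; the median log2 change was -0.004. The median of all genes tested was 0.015. None passed limma-trend, and 0 had an unadjusted p under 0.05, which 3.1% of all genes tested reached upward and 2.87% downward. Lmo2, an adaptor of E-protein complexes best known from blood progenitors, was at 1.06 and 2.82 FPKM in ACSS2NLS, against 0.518 and 1.41 FPKM in EV (log2 change 0.55 ± 0.37, n = 2 per group). Skp2, a part of a ubiquitin ligase, had a log2 change of 0.30 ± 0.21. The groups of both overlapped. The adaptor gene Ldb1 and Usp1, which encodes a deubiquitinase known to stabilise ID proteins, were the 2 genes of this list with groups that did not overlap, both lower in ACSS2NLS; they are named after their values were seen. These 2 of 10 genes stand beside the 18.1% of all genes tested that were lower without overlap. Among the E-box-binding zinc fingers 3 of 5 were tested, 2 higher and 1 lower in mean, none passed and 0 had an unadjusted p under 0.05. Snai3 had a log2 change of 0.17 ± 0.17 and Zeb2, a repressor known from effector cells, of 0.13 ± 0.22.

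Regulators known to act upstream of ID genes gave no common direction. Of 17 listed, 11 were tested, of which 4 had a higher and 7 a lower mean; the median log2 change was -0.007. None passed limma-trend, and an unadjusted p under 0.05 was reached by 1 gene upward and 1 downward, against the 3.1% and 2.87% of all genes given above. Egr2, a transcription factor induced by T cell receptor signals, was at 21.4 and 37.2 FPKM in ACSS2NLS, against 10.9 and 14.6 FPKM in EV (log2 change 1.10 ± 0.28, adjusted p = 0.81, n = 2 per group). Its relative Egr1, which is known to induce Id3 in thymocytes and is named after its values were seen, went the other way, at 31.6 and 26.0 FPKM in ACSS2NLS and 50.5 and 38.3 FPKM in EV. Prdm1, which encodes the repressor BLIMP1, was at 7.52 and 6.18 FPKM in ACSS2NLS, against 14.5 and 8.18 FPKM in EV (log2 change -0.61 ± 0.27, adjusted p = 0.81, n = 2 per group). The groups did not overlap for 2 genes that were higher, Egr2 and Egr3, and for 4 that were lower, Prdm1, Egr1, Tgfbr2 and Smad1; Egr3, Tgfbr2 and Smad1 are named after their values were seen. As shares of the list, 2 of 11 and 4 of 11 stand beside the 19.3% and 18.1% of all genes given above.

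Genes reported in lymphocytes as E-protein targets were split as well. Of 18 listed, 12 were tested, of which 4 had a higher and 8 a lower mean; the median log2 change was -0.20. None passed limma-trend, and an unadjusted p under 0.05 was reached by 1 gene upward and 2 downward, against 3.1% and 2.87% of all genes tested. Socs3, a feedback inhibitor of cytokine signals, was at 14.2 and 11.2 FPKM in ACSS2NLS, against 53.6 and 20.8 FPKM in EV (log2 change -1.34 ± 0.43, adjusted p = 0.81, n = 2 per group). Cdkn1a, which encodes the cell cycle inhibitor p21, was at 10.4 and 13.7 FPKM in ACSS2NLS, against 30.2 and 18.5 FPKM in EV (log2 change -0.93 ± 0.26, adjusted p = 0.81, n = 2 per group). The groups did not overlap for Tcf7 and Gfi1, which were higher, or for Socs3, Cdkn1a, Il7r and Foxo1, which were lower. These 2 of 12 and 4 of 12 genes stand beside 19.3% higher and 18.1% lower among all genes tested; Tcf7, Gfi1, Il7r and Foxo1 are named after their values were seen. Targets known from early lymphocyte development were nearly silent: Rag1 was listed at 0 in every library, and Rag2, Ptcra and Notch3 were below 0.1 FPKM.

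**Figure D3:**
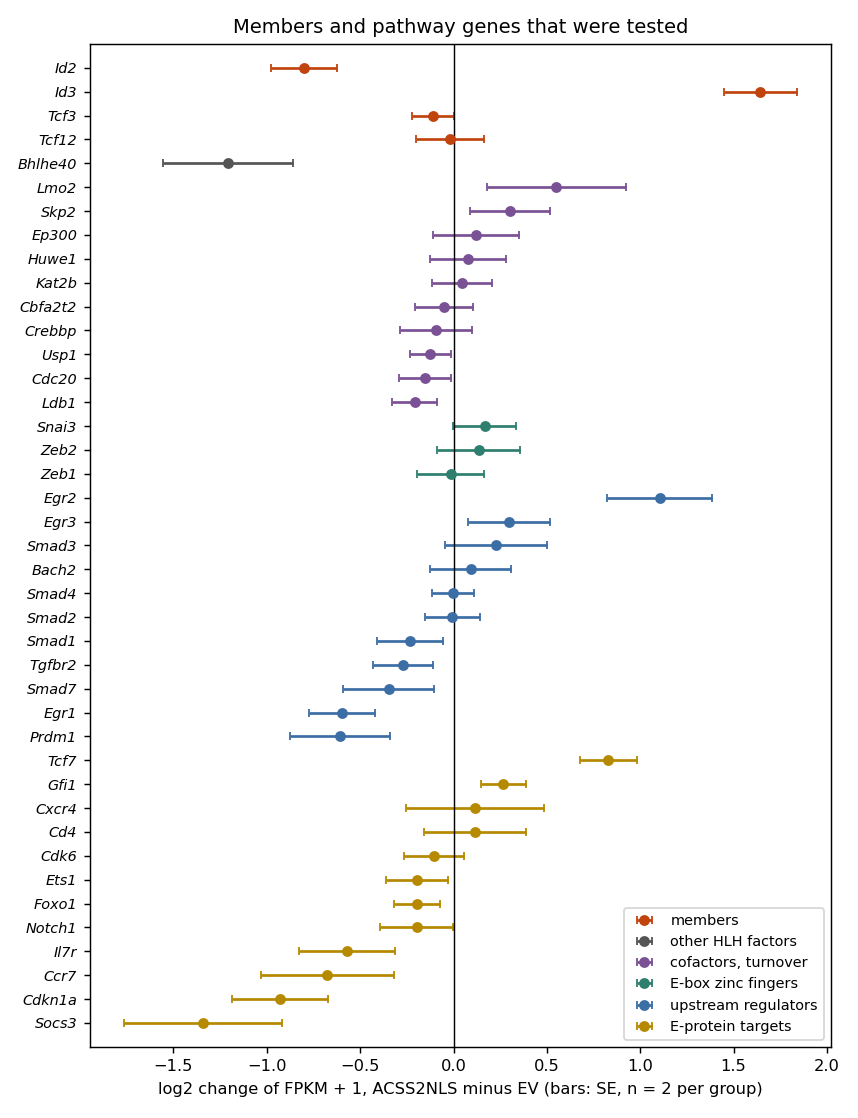
Log2 change of FPKM + 1, ACSS2NLS minus EV, with its SE (bars, n = 2 per group), for the 4 members and the pathway genes that were tested, coloured by list. Id3 at 1.64 and Egr2 at 1.10 lie farthest to the right and Socs3 at -1.34 and Bhlhe40 at -1.21 farthest to the left.

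The genes closest in pattern to Id3 and to Id2 were found by the root mean square distance between log2(FPKM + 1) profiles, each centred on its mean over the 4 libraries, among 9193 genes. Nearest to Id3 was Slamf6, which encodes a surface receptor of progenitor exhausted cells, at a distance of 0.271. Slamf6 stood at 29.4 and 20.4 FPKM in ACSS2NLS, against 11.77 and 10.03 FPKM in EV, so its range was narrower than that of Id3. Prr5l and Cldn10 came next, at distances of 0.426 and 0.427. By this distance Id2 had nearer neighbours, Sik1 at 0.034, Arid5a at 0.037 and Plk2 at 0.049. There were 8 genes within 0.1 of Id2 and 0 within 0.1 of Id3. The distance was not scaled for the size of the change. Few genes changed as much as Id3, the 10th highest of 9810, so fewer could lie near it, and these counts do not compare likeness of pattern. Sik1, which encodes a salt-inducible kinase, stood at 8.70 and 6.70 FPKM in ACSS2NLS, against 15.2 and 12.4 FPKM in EV. The likeness rests on 4 libraries that all of these genes share.

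**Figure D4:**
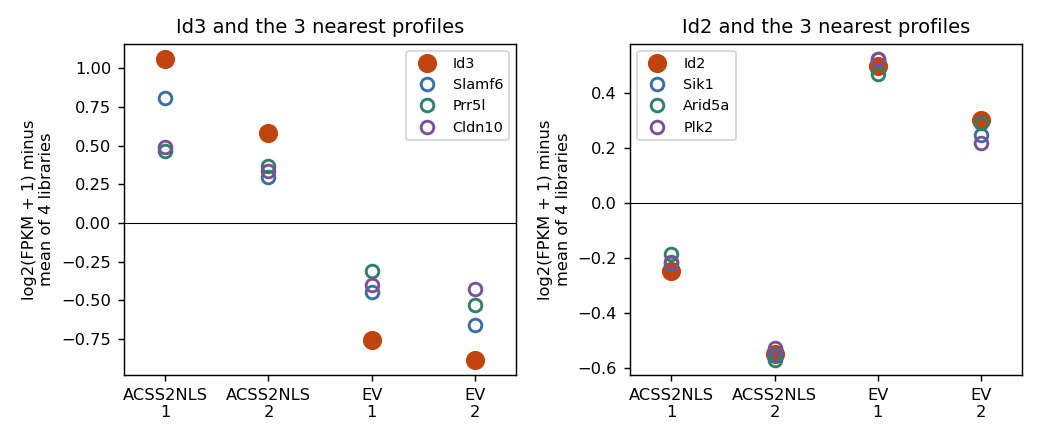
Centred log2(FPKM + 1) of Id3 (left) and Id2 (right, filled points) and of their 3 nearest genes (open points) in each library. The genes near Id2 lie almost on it, at distances of 0.034 to 0.049, whereas those near Id3 show the same order of groups over a narrower range.

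The libraries were of CD8+ T cells but also held transcripts of other cells, some of which are known to express ID or E-protein genes. The CD8+ T cell markers Cd8a, Cd8b1, Cd3d, Cd3e, Cd3g and Cd2 were high in every library, with summed levels of 1719 and 1327 FPKM in ACSS2NLS, against 1799 and 1492 FPKM in EV. In such bulk samples fewer cells of a type and less RNA per cell cannot be told apart. The 11 macrophage and monocyte markers summed to 153 and 779 FPKM in ACSS2NLS, against 46.4 and 405 FPKM in EV. Melanoma markers, 9 genes, summed to 13.8 and 180 FPKM in ACSS2NLS, against 7.62 and 46.2 FPKM in EV. The 8 dendritic cell markers summed to 331 and 731 FPKM in ACSS2NLS, against 159 and 551 FPKM in EV. Nearly all of these sums was H2-Ab1 and Cd74, so they say little of the other markers. Of those, Flt3 was lower and Cd209a higher in both ACSS2NLS libraries, and the rest overlapped. Plasmacytoid dendritic markers, 7 genes, summed to 8.81 and 11.0 FPKM in ACSS2NLS, against 6.53 and 13.7 FPKM in EV. Pacsin1 made up most of these sums, at 7.80 and 8.30 FPKM in ACSS2NLS, against 6.27 and 8.04 FPKM in EV. Siglech, Ccr9, Klk1, Cox6a2 and Ly6d were highest in EV replicate 2, and Bcl11a in ACSS2NLS replicate 2. The 8 NK and innate lymphoid markers summed to 60.5 and 145 FPKM in ACSS2NLS, against 32.3 and 102 FPKM in EV. Tyrobp and Fcer1g made up most of these sums. Ncr1 was at 0.93 and 0.711 FPKM in ACSS2NLS, against 1.08 and 1.26 FPKM in EV. Klrb1c was at 0.976 and 0.56 FPKM in ACSS2NLS, against 1.34 and 1.90 FPKM in EV. These genes were thus lower in both ACSS2NLS libraries, Eomes was higher in both, and the other genes of this list overlapped. For the sums of these 5 lists both libraries numbered 2 were above both numbered 1 and the groups overlapped, the order also seen for Tcf4 and Tcf12. Their part in the levels of the members was not tested.

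For stromal, endothelial and B cell markers the sums of both ACSS2NLS libraries lay above those of both EV libraries, as for Id3, though narrowly for the endothelial list. Stromal markers, 8 genes, summed to 10.4 and 10.6 FPKM in ACSS2NLS, against 0.221 and 6.68 FPKM in EV. Endothelial cells are known for high Id1 and Id3, and their 8 markers summed to 11.6 and 12.4 FPKM in ACSS2NLS, against 10.3 and 11.5 FPKM in EV. Most of that sum was Pecam1, which T cells also express. Among the other endothelial markers, Kdr was at 0.110 and 0.393 FPKM in ACSS2NLS, against 0.032 and 0.105 FPKM in EV, and its groups did not overlap. Egfl7 was at 1.51 and 1.58 FPKM in ACSS2NLS, against 1.64 and 1.39 FPKM in EV, and Plvap was at 0.663 and 0.124 FPKM in ACSS2NLS, against 0.141 and 0.586 FPKM in EV. The remaining 4, Cdh5, Tek, Cldn5 and Emcn, were below 0.1 FPKM in every library. B cell markers, 7 measured genes, summed to 3.18 and 4.19 FPKM in ACSS2NLS, against 1.67 and 2.77 FPKM in EV, with Pax5 and Ebf1 below 0.1 FPKM. The sum of the 7 neutrophil markers was lower in both ACSS2NLS libraries, like Id2. It was 0.774 and 3.16 FPKM in ACSS2NLS, against 7.46 and 53.5 FPKM in EV, where S100a8 and S100a9 made up most of it. S100a8, S100a9, Retnlg and Mmp9 were lower in both ACSS2NLS libraries, while the groups overlapped for Csf3r, Ly6g and Cxcr2. The 7 CD4 and regulatory T cell markers summed to 113 and 54.3 FPKM in ACSS2NLS, against 194 and 104 FPKM in EV, and the groups overlapped. Ctla4 and Il2ra made up most of these sums. Cd4 was at 1.6 and 2.2 FPKM in ACSS2NLS, against 1.1 and 2.4 FPKM in EV. Foxp3 was at 2.85 and 3.89 FPKM in ACSS2NLS, against 2.37 and 3.74 FPKM in EV. Zbtb7b was higher in both ACSS2NLS libraries, and the other genes of this list overlapped. The part of these transcripts in the levels of the members was not tested.

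**Figure D5:**
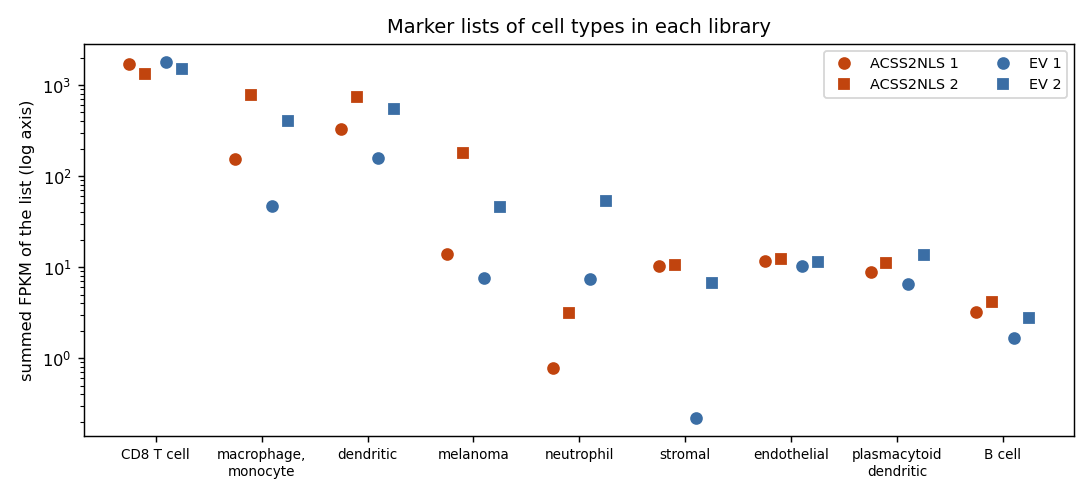
Summed FPKM of marker lists of 9 cell types in each library, on a log axis (ACSS2NLS left, EV right in each group of points). Macrophage, dendritic, melanoma and plasmacytoid dendritic sums are higher in replicate 2 of both groups, stromal, endothelial and B cell sums are higher in both ACSS2NLS libraries and neutrophil sums are lower in both.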

How the data were processed

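CD8+ T cell RNA was sequenced in 2 ACSS2NLS and 2 EV libraries. Per the labels' protocols, an RNeasy Plus Micro kit gave the RNA and a SMART-Seq v4 kit the libraries. HOMER, STAR 2.5.3a and the mm10 build are named, per the submitters' processing notes. Per the file headers, the authors counted tags over exons on the sense strand with HOMER, with a single transcript per gene, and deposited FPKM. The columns Acss2OE and Acss2WT were read as ACSS2NLS and EV, checked by the level of Acss2. The header names 8 tag directories; the 4 library columns of the table were used. The sources used here do not say whether strand was kept, but no exon of the 6 members shares bases with another gene in GENCODE M21.

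The low FPKM values, multiplied by gene length, fell on whole steps. This held, to within 0.1 of a step, for 100% of the values checked (lengths of 500 to 2000 bases, up to 50 tags). The steps gave 46000000 to 49300000 total tags per library and the tags behind each value. Of the total, 39.6% to 41.9% were counted on the sense strand over exons of the single transcript kept per gene. Tags on the other strand or on other transcripts are not in this share. The deposited FPKM were turned into log2(FPKM + 1) for genes that averaged 1 FPKM or more, and the groups were compared with limma-trend (limma 3.58.1, R 4.3.3), two-sided, adjusted over all 9810 genes at a threshold of 0.05. Such changes understate those of low genes. The fit was tested on simulated data. The deposited values are FPKM, and no count test was run on the tags derived from them.

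The members and lists were chosen with earlier results of these data known. Named genes were the members, Acss2, the 2 genes of each pathway list with the largest absolute log2 change, and the 3 nearest profiles of Id3 and Id2. Cell type markers were named from fixed lists, and other genes after their values were seen. Upstream sequences are from RefSeq (GRCm38.p6), matched by symbol and start for 3 members, Id2, Id3 and Tcf12; Id1, Tcf3 and Tcf4 were not matched.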

Additional observations from a re-analysis of the deposited data

How the results depend on the processing

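With 2 libraries per group, single libraries weigh heavily. Id1 and Tcf4 were both low, and Id1 was also limited by depth. The replicates of Tcf4 differed beyond counting error, as their Poisson 95% intervals did not overlap. For replicates 1 and 2 these were 0.2735 to 0.3976 and 0.5934 to 0.7705 FPKM in ACSS2NLS. In EV they were 0.3099 to 0.4456 and 0.6435 to 0.8254 FPKM. Id3 was higher and Id2, Id1 and Tcf3 were lower in ACSS2NLS under every alternative run for them. Leaving out each library in turn, the log2 change lay between 1.41 and 1.88 for Id3, between -0.95 and -0.65 for Id2, between -0.61 and -0.16 for Id1 and between -0.17 and -0.05 for Tcf3. Over the same fits Tcf12 ran from -0.23 to 0.19 and Tcf4 from -0.21 to 0.12, so neither had a stable direction. The log2 ratio of Id3 to Id2 ran from 2.65 to 2.87 (2.76 with all libraries), and that of summed ID to summed E-protein level from -0.82 to -0.47 (-0.65 with all libraries); leaving out libraries for these ratios was chosen after seeing the data. With a pseudocount of 0.1, Id3 was at 1.92 and Id1 at -1.01. With FPKM rescaled to 1000000 per library, where 1 added is a smaller part of each value, Id3 was at 1.91, Id1 at -0.84 and Tcf12 at 0.0020.

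Genes past the threshold numbered 2 higher and 0 lower, against 304 upward and 282 downward with p under 0.05 before adjustment. With no filter on low values 1 was higher. Without single libraries the counts were 2 upward in each fit and 0 to 9 downward, the 9 without EV replicate 1. With the replicate number as a block, 229 were higher and 172 lower; libraries with the same number deviated together (correlation 0.583 over genes), but the labels do not say that a number marks a shared batch, and that fit has 1 residual degree of freedom.

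The median of the cofactor list (-0.004) was 0.044 with no filter, -0.15 with a mean of at least 5 FPKM, -0.064 under quantile normalization, 0.022 with rescaled FPKM, and -0.059 to 0.062 without single libraries. That of the upstream regulators (-0.007) was 0.023 with no filter, -0.14 with a mean of at least 5 FPKM, 0.017 with rescaled FPKM and -0.083 to -0.005 without single libraries. The zinc finger median (0.13) ran from -0.036 to 0.28 without single libraries and had no value with a mean of at least 5 FPKM. The E-protein target median (-0.20) was -0.0014 with no filter and -0.22 to -0.20 without single libraries. The causes of these shifts were not tested.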
